A study of Mus musculus with 4 samples.

Results

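The 58 genes described here encode the conjugating enzymes of liver metabolism and the aldehyde dehydrogenases, followed through the DNA of 4 mouse liver tumours. UDP-glucuronosyltransferases (Ugt genes) attach a sugar acid to bilirubin, steroids, bile acids and drugs. Glutathione S-transferases (Gst genes, with the membrane-bound Mgst genes) attach glutathione to reactive electrophiles, sulfotransferases (Sult genes) attach sulfate to hormones, neurotransmitters and phenols, and aldehyde dehydrogenases (Aldh genes) oxidise aldehydes to acids. Hepatocytes hold many of these enzymes at high levels, several of the genes lie in clusters of close relatives, and such clusters are known to vary in copy number within species.

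The members were every autosomal gene whose name in the array files begins with Ugt1, Ugt2, Ugt3, Gsta, Gstm, Gstt, Gstp, Gsto, Gstk, Gstz, Mgst, Sult or Aldh. The rule used names only, no measured value. It found 58 of 21343 autosomal genes, in 12 families on 16 chromosomes, with 172 probes in all, and all 58 symbols were matched in RefSeq. No gene beginning with Gstk was analysed here. A gene had between 1 and 13 probes. The 16 members with 1 probe are described only, and the 42 with 2 or more were tested among 13389 such genes.

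The study measured genomic DNA by array comparative genomic hybridization, in which DNA of tumour and reference, labelled with unlike dyes, is hybridised together to oligonucleotide probes, so that a spot gives the ratio of both. Tumours came from 4 individual C57BL/6J mice with liver-specific loss of Trp53, and form 1 group; the numbers 1 to 4 are names only. Tumour DNA carried Cy5 and reference DNA carried Cy3 on every array. The series design describes the reference as spleen DNA pooled from 3 littermates of the same sex, whereas the labelling protocol names liver. Both tumour and reference are labelled Trp53-/- and male, and the mice were untreated. Age and the Cre driver of the liver-specific loss are not given in the sources used here. In bulk DNA a small change in every cell and a larger change in some cells cannot be told apart.

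Several facts of the arrays touch every value below. Controls aside, there were 174317 spots to an array. Probe noise was taken as the SD of the differences between neighbouring autosomal probes, divided by the square root of 2. It was 0.137, 0.379, 0.158 and 0.167 on the log2 scale in tumours 1 to 4, so tumour 2 had by far the noisiest array. Chromosomes X and Y went against the labels of male sex on the arrays of tumours 1 and 4. X averaged -0.82, -0.054, -0.0061 and 0.84 in tumours 1 to 4. Y averaged 2.22, -0.087, -0.20 and -2.35, so X was low and Y high in tumour 1, and the opposite held in tumour 4. Over all placed probes the arrays of tumours 1 and 4 correlated at -0.61, and over autosomal probes at 0.18; the labels state the dyes, so the direction was kept. The targeted gene Trp53, on chromosome 11, had 2 probes that lay on opposite sides of 0. The probe at chr11:69397121-69397180 read -0.53, -0.78, -0.073 and -0.76, and the probe at chr11:69404685-69404744 read 0.14, 0.51, 0.31 and 0.17 in tumours 1 to 4. The deleted part of Trp53 is not given in the sources used here and both channels carry 1 genotype label, so whether these probes check the labels is not known.

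A gene value is the mean over the gene's probes of log2 tumour over reference signal, after subtraction of the array's autosomal median. A value of 0 is therefore the middle of that array, a positive value is a higher ratio in tumour than in reference DNA, and all values below are on this log2 scale. Positions are on the mouse build mm9 as the file headers give it. No annotation of that build was used here, so exons and introns are not named, and the strand of a probe is not given in the files.

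The probes below carry the main observations. The first 6 lie in genes on chromosomes 15, 9 and 12, the next 5 in the Ugt2 cluster of chromosome 5, where genes with low and level values in tumour 2 stand side by side, and the last 2 are the disagreeing probes of Gsto1. Capitals mark G and C, the bases whose share moved with the log2 ratio on the array of tumour 2.
Ugt3a2, chr15:9276085-9276144: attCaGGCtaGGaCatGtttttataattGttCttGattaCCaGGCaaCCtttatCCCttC
Ugt3a2, chr15:9292276-9292335: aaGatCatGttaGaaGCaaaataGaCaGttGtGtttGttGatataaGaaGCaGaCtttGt
Gsta4, chr9:78051454-78051513: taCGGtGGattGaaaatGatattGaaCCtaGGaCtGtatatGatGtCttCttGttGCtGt
Gsta2, chr9:78189057-78189116: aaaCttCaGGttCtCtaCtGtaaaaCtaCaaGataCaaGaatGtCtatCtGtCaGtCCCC
Aldh1a2, chr9:71111536-71111595: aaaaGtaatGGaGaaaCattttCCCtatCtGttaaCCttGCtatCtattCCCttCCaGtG
Aldh6a1, chr12:85783005-85783064: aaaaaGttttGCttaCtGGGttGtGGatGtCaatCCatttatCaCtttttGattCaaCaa
Ugt2b35, chr5:87433140-87433199: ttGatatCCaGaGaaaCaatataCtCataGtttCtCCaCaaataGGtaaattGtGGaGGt
Ugt2b35, chr5:87440613-87440672: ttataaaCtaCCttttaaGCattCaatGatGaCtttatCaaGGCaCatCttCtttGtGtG
Ugt2b38, chr5:87851632-87851691: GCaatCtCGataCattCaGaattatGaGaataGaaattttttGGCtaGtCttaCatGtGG
Ugt2b36, chr5:87509272-87509331: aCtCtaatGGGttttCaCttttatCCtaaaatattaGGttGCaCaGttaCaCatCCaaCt
Ugt2b34, chr5:87330393-87330452: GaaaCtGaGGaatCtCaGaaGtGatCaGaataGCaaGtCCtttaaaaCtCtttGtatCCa
Gsto1, chr19:47930384-47930443: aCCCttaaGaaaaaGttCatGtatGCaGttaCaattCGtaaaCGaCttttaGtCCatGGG
Gsto1, chr19:47937767-47937826: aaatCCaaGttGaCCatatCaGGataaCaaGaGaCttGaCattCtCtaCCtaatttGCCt

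No conjugating enzyme gene passed the test. Each gene value was tested against 0 over the 4 tumours with limma and Benjamini-Hochberg adjustment over all 13389 genes, at an adjusted p of 0.05. The members past this threshold numbered 0 of 42, against 0% higher and 0% lower of all genes tested. At an unadjusted limma p under 0.05 there were 9 members, 21.4% of the 42, of which 4 were above 0 and 5 below, against 2540 genes or 19% of all genes. The lowest adjusted p-values among members were 0.0858 for Gsta4, 0.0872 for Ugt3a2, 0.102 for Gsto1 and 0.125 for Aldh1a2. These p-values set the mean over the 4 arrays against a standard error. It comes from the spread of the ratio between arrays, moderated over all genes tested. That spread holds differences between tumours, array noise and any difference between the references hybridised, which cannot be told apart here.

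Members above 0 in all 4 tumours numbered 6 of 42, or 14.3%, against 14.3% of all genes. Members below 0 in all 4 numbered 8 of 42, or 19%, against 16.8%. Both shares are near the background. Outside chromosomes 9, 12 and 15 the counts were 4 above and 5 below of 37 members, against 12.8% and 14% of genes there. A mean of at least 0.2 was found in 1 of 42 members (Ugt3a2), against 4.16% of all genes, and a mean of -0.2 or lower in 4 members (Aldh1a3, Gsta4, Gsto1 and Ugt2b35), against 4.23%. The median of the tested members was -0.017, beside -0.0083 for all genes.

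**Figure D1:**
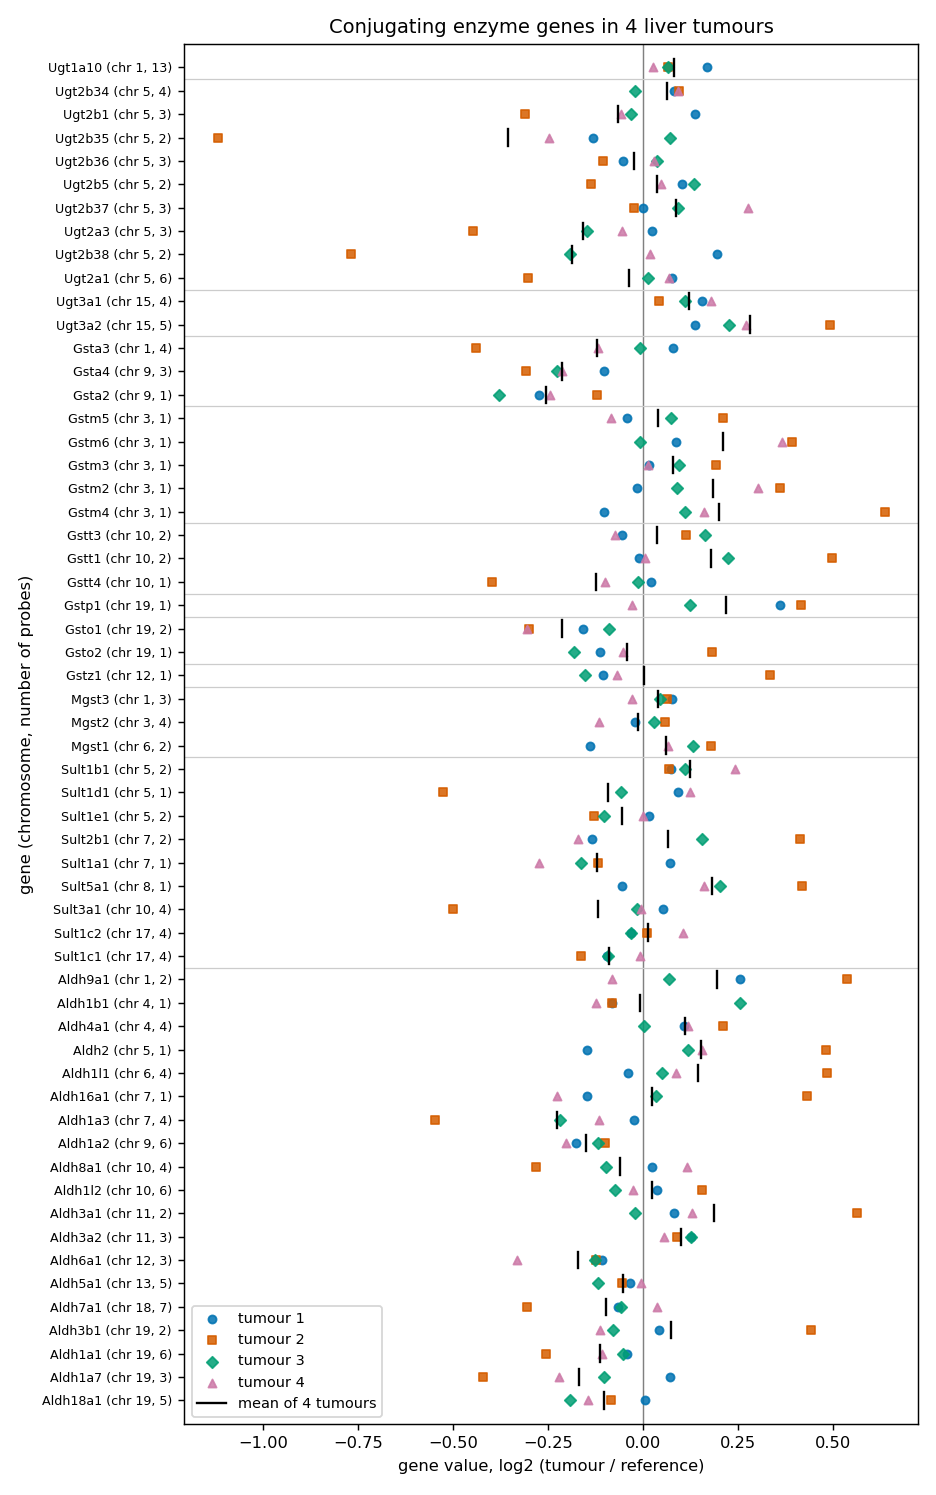
Gene values of the 58 conjugating enzyme genes in each of the 4 tumours (log2 tumour over reference, horizontal axis), with genes down the page by family, their chromosome and number of probes in brackets, and a black bar at the mean. Tumour 2 (squares) holds most of the extreme values, down to -1.12 at Ugt2b35, and the genes of chromosome 15 lie above 0 in every tumour.

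Members on chromosomes 9 and 15 had means on the same side of 0 as those chromosomes, and of the pair on chromosome 12 only Aldh6a1 did. The 2 members on chromosome 15 had a median of 0.20 over the tumour means, the 3 on chromosome 9 had -0.21, the 2 on chromosome 12 had -0.085, and the 51 elsewhere had 0.024. All genes with 2 or more probes gave 0.22 on chromosome 15 (535 genes), -0.12 on chromosome 9 (796 genes), -0.13 on chromosome 12 (521 genes) and -0.0042 elsewhere (11537 genes). Restricted to 2 or more probes as well, the members gave 0.20 on chromosome 15 (2 genes), -0.18 on chromosome 9 (2 genes), -0.17 on chromosome 12 (1 gene, Aldh6a1) and -0.012 elsewhere (37 genes), so the sign elsewhere turned with the 1-probe genes left out. By tumour, the member medians were 0.15, 0.27, 0.17 and 0.23 on chromosome 15 in tumours 1 to 4. They were -0.18, -0.12, -0.23 and -0.21 on chromosome 9. Over all genes, the medians were 0.21, 0.29, 0.14 and 0.22 on chromosome 15. On chromosome 9 they were -0.17, 0.020, -0.12 and -0.20. Chromosome 9 was thus low in tumours 1, 3 and 4 and near 0 in tumour 2. Its 3 members were below 0 there as well. Aldh1a2, at -0.099, and Gsta2, at -0.12, lay above the lower quartile of all genes in tumour 2, which was -0.15. Gsta4, at -0.31, lay below it. Without the 2 arrays whose X and Y went against their labels, the member medians were 0.22 on chromosome 15, -0.25 on chromosome 9, -0.017 on chromosome 12 and 0.037 elsewhere. The direction on chromosome 12 rests on 2 genes that disagreed.

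**Figure D2:**
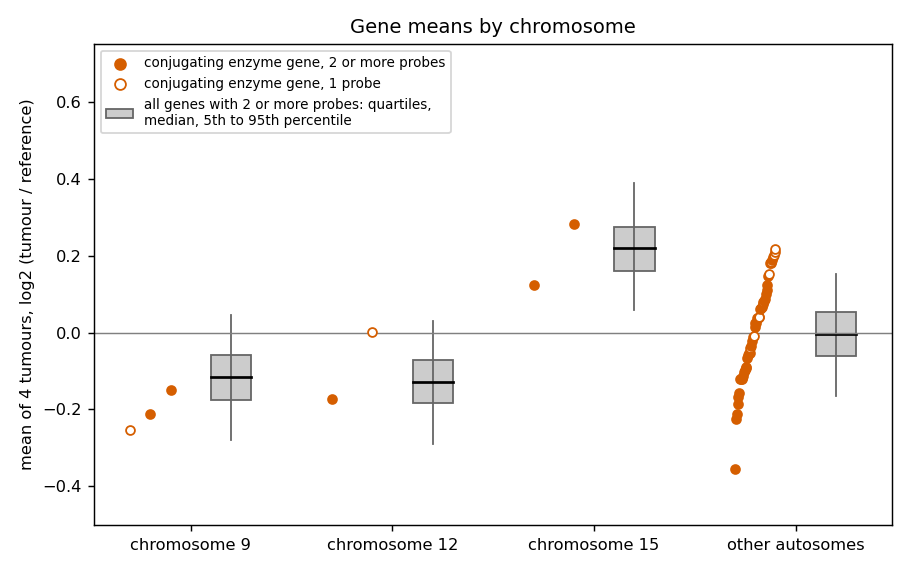
Mean over 4 tumours of log2 tumour over reference (vertical axis) for the conjugating enzyme genes (orange points, open where a gene has 1 probe) and, to their right, for all genes with at least 2 probes (grey box, quartiles; line, median; whisker, 5th to 95th percentile) on chromosomes 9, 12, 15 and the other autosomes. The members on chromosome 15 lie at 0.12 and 0.28, and the members on chromosome 9 lie between -0.25 and -0.15.

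The Ugt3 family, which in humans uses sugars other than glucuronic acid, sat wholly on chromosome 15 and was the only family with every gene above 0 in all 4 tumours besides the single Ugt1 gene. Ugt3a2 (5 probes, chr15:9267096-9298087) read 0.14, 0.49, 0.23 and 0.27 in tumours 1 to 4, a mean of 0.28 ± 0.15 (SD, n = 4; limma adjusted p = 0.0872). All 5 of its probes were above 0 in tumours 2, 3 and 4, and 4 of 5 in tumour 1. Ugt3a1 (4 probes), its neighbour, read 0.16, 0.043, 0.11 and 0.18, a mean of 0.12 ± 0.060 (SD, n = 4; limma adjusted p = 0.197). In tumour 2 these neighbours stood furthest apart, and 1 probe of Ugt3a1 was far below the others there. The probe starting at 9230953 read 0.18, -0.60, -0.26 and -0.063, while the next probe, starting at 9231347, read 0.25, 0.33, 0.26 and 0.21 in tumours 1 to 4.

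Surrounding DNA of the Ugt3 genes was at a similar level. The median of the probes within 1 Mb that carry another gene name or none was 0.18, 0.26, 0.14 and 0.24 around Ugt3a2 in tumours 1 to 4. Relative to those probes, Ugt3a2 averaged 0.079 ± 0.12 and Ugt3a1 averaged -0.082 ± 0.092 (SD, n = 4 each; limma adjusted p = 0.446 and 0.388). Genes above 0 in every tumour made up 83.2% of all genes tested on chromosome 15, so both Ugt3 genes share that pattern with most of the chromosome.

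Chromosome 9 carried 3 members, each below 0 in all 4 tumours, against 45% of the genes tested there. Gsta4, whose enzyme conjugates the lipid peroxidation product hydroxynonenal, had 3 probes at chr9:78042441-78051513 and read -0.10, -0.31, -0.23 and -0.21, a mean of -0.21 ± 0.084 (SD, n = 4; limma adjusted p = 0.0858). Its neighbour Gsta2, another alpha-class transferase, had 1 probe and read -0.27, -0.12, -0.38 and -0.24, a mean of -0.25 ± 0.11 (SD, n = 4). Aldh1a2, which makes retinoic acid from retinaldehyde, had 6 probes and read -0.18, -0.099, -0.12 and -0.20, a mean of -0.15 ± 0.048 (SD, n = 4; limma adjusted p = 0.125).

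Aldh1a2 matched its surroundings closely, with -0.19, -0.048, -0.11 and -0.26 in the flanking probes and a mean difference of 0.0036 ± 0.047 (SD, n = 4). The probes within 1 Mb of Gsta2 had medians of -0.19, 0.022, -0.11 and -0.22, above the gene in every tumour, with the widest gap in tumour 3 and the next in tumour 2. Gsta4 stood furthest from its surroundings in tumour 2. There the probes within 1 Mb of Gsta4 had a median of 0.011, against a gene value of -0.31, and the 3 probes of Gsta4 themselves ranged between -0.66 and 0.22. The difference of Gsta4 from its flanks averaged -0.083 ± 0.18 (SD, n = 4; limma adjusted p = 0.528). Without tumours 1 and 4 the means of Gsta4, Gsta2 and Aldh1a2 were -0.27, -0.25 and -0.11. Gsta3, the remaining alpha-class gene, lies on chromosome 1 and read 0.080, -0.44, -0.0085 and -0.12, on both sides of 0.

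The 2 members on chromosome 12 differed. Aldh6a1, a mitochondrial enzyme of valine and thymine breakdown, had 3 probes and read -0.11, -0.12, -0.13 and -0.33, a mean of -0.17 ± 0.11 (SD, n = 4; limma adjusted p = 0.155), and lay below 0 in every tumour, as did 53.2% of the genes tested on this chromosome. Tumour 4 was the lowest and stood apart from the other 3. Gstz1, whose enzyme isomerises maleylacetoacetate in tyrosine breakdown, had 1 probe and read -0.10, 0.33, -0.15 and -0.068, a mean of 0.0019 ± 0.22 (SD, n = 4). It was below 0 in tumours 1, 3 and 4 and above 0 in tumour 2, where its flanking probes had a median of 0.077. In the other 3 tumours those flanks lay between -0.19 and -0.10.

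**Figure D3:**
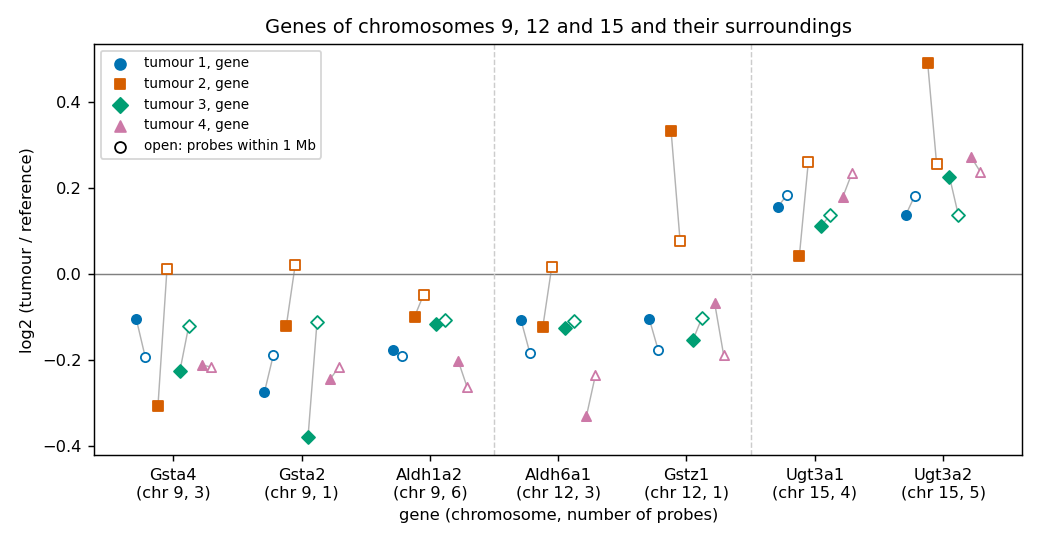
Gene values (filled) and the median of probes of other or no gene name within 1 Mb (open, joined by a line) for the 7 members on chromosomes 9, 12 and 15, with tumours 1 to 4 side by side and log2 tumour over reference on the vertical axis. Gene and surroundings lie close together for Aldh1a2 in every tumour, and furthest apart in tumour 2 for Gsta4, at -0.31 against 0.011.

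In the main processing, Gsta4, Ugt3a2 and Aldh1a2 passed the threshold only when tumour 2 was left out. Their means went from -0.21, 0.28 and -0.15 to -0.18, 0.21 and -0.16 without tumour 2. Fitted on the other 3 tumours, limma called 416 genes higher and 746 lower at an adjusted p of 0.05, which is 3.11% and 5.57% of 13389. The called members were then Ugt3a1 (adjusted p = 0.0448) and Ugt3a2 (0.0254), both higher, and Aldh1a2 (0.036) and Gsta4 (0.0349), both lower. Called genes made up 64.9% of chromosome 15 (higher) and 47.1% of chromosome 9 (lower), and the members called lay on those chromosomes alone. On chromosome 12, 51.8% of genes were called lower, and Aldh6a1 was not (adjusted p = 0.0613). Leaving out tumour 1, 3 or 4 in place of tumour 2 left 0 genes called, with unadjusted limma p under 0.05 at between 1579 and 2371 genes.

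Other processing settings also brought calls. With normexp background correction in place of the deposited processed signals, 4.83% of genes were higher and 6.14% lower at an adjusted limma p of 0.05, with 2 and 4 members among them. With slide as a random block the shares were 3.54% and 4.78%, with 1 and 3 members. In that fit the estimated correlation within a slide was negative, at -0.34, which makes the standard error of a mean smaller. With a minimum of 3 probes, over 9595 genes, they were 1.94% and 1.86%, with 1 member each. Ugt3a2 was among the higher and Gsta4 among the lower genes in all 3 of these settings and without tumour 2. On chromosome 15, which holds Ugt3a2, 65.6% of genes were called higher with normexp. The share was 65.8% with the slide block and 46.8% with the minimum of 3 probes. On chromosome 9, which holds Gsta4, 29.8%, 29.6% and 15.9% were called lower in the same order. Gsto1 (normexp and slide block) and Aldh1a3 and Ugt2b35 (normexp) were called lower on other chromosomes. The other alternatives, apart from those without tumours 1 and 4, called no gene.

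The largest cluster lay on chromosome 5, where 9 Ugt2 genes and 3 sulfotransferase genes (Sult1b1, Sult1d1 and Sult1e1) fill 693 kb at chr5:87319481-88012089 with 33 probes. Ugt2 enzymes glucuronidate steroids, bile acids and many drugs. Sult1e1 sulfates oestrogens, Sult1b1 acts on phenols and thyroid hormones, and Sult1d1 acts on catecholamines in mice. Over the 33 probes the cluster averaged 0.052, -0.27, -0.0049 and 0.049 in tumours 1 to 4, so that tumour 2 was the lowest. The level within 1 Mb of a gene, as a median over the 12 genes, was 0.0053, -0.17, -0.018 and 0.034, also lowest in tumour 2. Probes of the other cluster genes are part of that level, so it is not independent of the cluster. In tumour 2, 10 of the 12 genes were below 0, over a range of -1.12 to 0.095. The 12 genes spread with an SD of 0.36 in tumour 2, and of 0.086, 0.10 and 0.14 in tumours 1, 3 and 4.

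Within the cluster, gene values in tumour 2 were uneven. Every gene from Ugt2b1 to Ugt2a1 was below 0 there, between -1.12 and -0.024. Steps between neighbouring genes rest on few probes and were not tested. Ugt2b35 (2 probes) read -0.13, -1.12, 0.071 and -0.25, a mean of -0.36 ± 0.52 (SD, n = 4; limma adjusted p = 0.324). Both of its probes, shown above, were low in tumour 2, at -1.25 and -0.99, and in the other tumours the gene lay between -0.25 and 0.071, a mean of -0.10 without tumour 2. Ugt2b38 (2 probes) read 0.19, -0.77, -0.19 and 0.018, a mean of -0.19 ± 0.42 (SD, n = 4; limma adjusted p = 0.496), and 0.0069 without tumour 2. Between them on the chromosome, Ugt2b36 read -0.11, Ugt2b5 -0.14, Ugt2b37 -0.024 and Ugt2a3 -0.45 in tumour 2. At the start of the cluster Ugt2b34 read 0.083, 0.095, -0.020 and 0.094 in tumours 1 to 4 and was not low in tumour 2.

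The remaining genes of the cluster had narrower ranges than Ugt2b35 and Ugt2b38. Ugt2b1 read 0.14, -0.31, -0.032 and -0.057, lowest in tumour 2. Ugt2a1 read 0.077, -0.30, 0.013 and 0.069, again lowest in tumour 2 and above 0 in the others. Sult1d1 (1 probe) read 0.093, -0.53, -0.058 and 0.13, also lowest in tumour 2. Sult1b1 (2 probes) read 0.075, 0.069, 0.11 and 0.24, above 0 in every tumour, a mean of 0.12 ± 0.081 (SD, n = 4; limma adjusted p = 0.22). Sult1e1 read 0.016, -0.13, -0.10 and 0.00061, within 0.13 of 0.

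**Figure D4:**
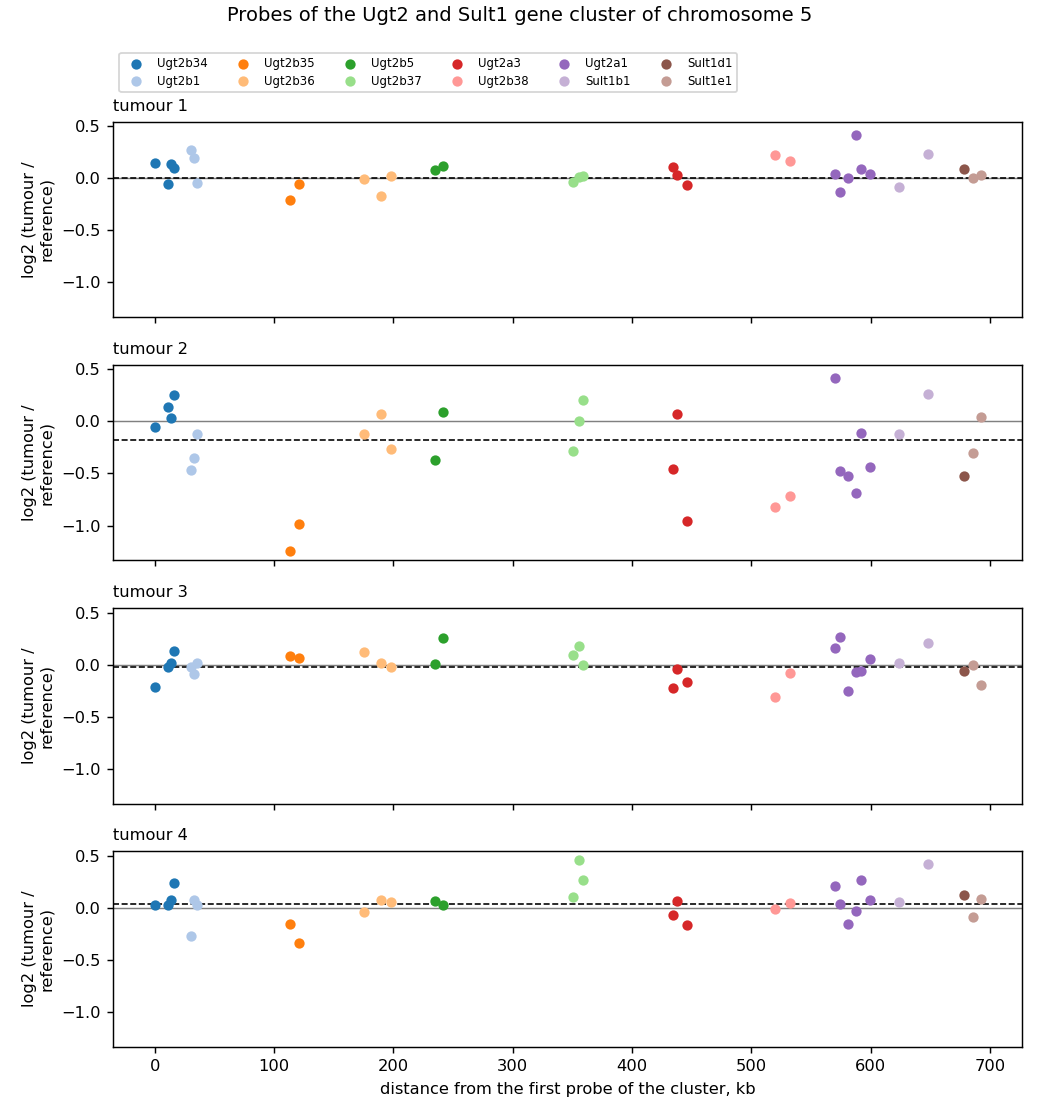
Log2 tumour over reference of the 33 probes of the Ugt2 and Sult1 cluster of chromosome 5 (vertical axis) against distance from its first probe in kb, 1 panel per tumour and 1 colour per gene. The dashed line is the median over the genes of the level within 1 Mb, which includes probes of the other cluster genes. In tumour 2 the probes of Ugt2b35 reach -1.25 and those of Ugt2b38 reach -0.82, while those of Ugt2b34 lie between -0.050 and 0.25.

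The ratio on the array of tumour 2 moved with the base composition of the probes. Over 159076 autosomal probes, the log2 ratio correlated with the percentage of G and C at 0.28 in tumour 2, and at 0.085, 0.060 and 0.095 in tumours 1, 3 and 4. These points share an array and its labelling, so the correlations are descriptions only. Member probes under 34% G and C (30 probes) had a median of -0.34 in tumour 2, and those at 38% or more (47 probes) had 0.16. In the other tumours the same medians lay between -0.026 and 0.00026 for the first set and between 0.015 and 0.021 for the second. All autosomal probes in these 2 ranges of G and C had medians of -0.20 (19190 probes) and 0.11 (45705 probes) in tumour 2. Probes of Ugt2b35 held 32.5% G and C on average, those of Ugt2b38 34.2%, and those of Ugt2b34 37.5%.

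After the trend on base composition was removed within each array, an alternative added with the data in view, Ugt2b35 read -0.91 and Ugt2b38 -0.64 in tumour 2, and the cluster averaged -0.20. Ugt2b36, whose probes hold 33.9% G and C, read 0.024 in tumour 2 on that scale. Probes of different genes of a family shared at most 19 consecutive bases, between Ugt2b35 and Ugt2b37, over 2840 pairs compared. They were compared with each other and not with the genome, so hybridisation to other parts of related genes was not tested.

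**Figure D5:**
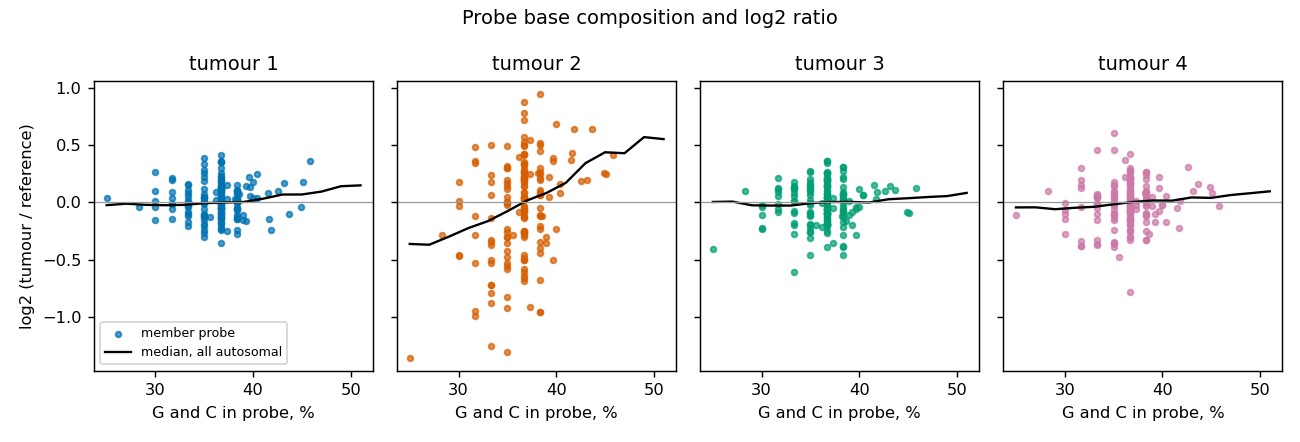
Log2 tumour over reference of the 172 member probes (points, vertical axis) against the percentage of G and C in the probe (horizontal axis), 1 panel per tumour, with a black line at the median of all autosomal probes in steps of 2 percentage points. The line climbs with G and C in tumour 2, and member probes there spread far more than in tumours 1, 3 and 4.

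In tumour 2, 3 of 42 members read -0.5 or lower (Aldh1a3, Ugt2b35 and Ugt2b38), against 2.27% of all genes, and 2 read 0.5 or higher (Aldh9a1 and Aldh3a1), against 3.35%. The range over the 4 tumours reached 0.5 or more in 11 of 42 members, 26.2%, against 8.28% of all genes. Members had fewer probes, with a median of 3 against 4 for all genes. Among genes with 2 to 4 probes, the shares were 33.3% (11 of 33 members) and 12.6% (1024 of 8134 genes). In all 11 members tumour 2 was the lowest or the highest, and without tumour 2 the range reached 0.5 in 0 of 42 members and in 90 of 13389 genes. Tumour 2 was an extreme in 33 of 42 members, against 76.8% of all genes, which is close to the members' 78.6%. This is a description of the arrays with no test.

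The mu-class glutathione transferases, Gstm2 to Gstm6 on chromosome 3, had 1 probe each within 143 kb. All 5 were above 0 in tumour 2, between 0.19 and 0.64, and their 5 probes averaged -0.011, 0.36, 0.072 and 0.15 in tumours 1 to 4. The probes within 1 Mb, those of the other Gstm genes among them, had medians of 0.018, 0.040, 0.025 and 0.0063, nearer to 0 in tumours 2, 3 and 4. Gstm4 had the widest range of the family and read -0.10, 0.64, 0.11 and 0.16, highest in tumour 2, a mean of 0.20 ± 0.31 (SD, n = 4) and of 0.056 without tumour 2. Its probe holds 43.6% G and C, and with the trend on base composition removed it read -0.16, 0.30, 0.082 and 0.11. On that scale Gstm2, whose probe holds 31.7% G and C, read 0.017, 0.60, 0.11 and 0.33 and had the wider range. With 1 probe a gene, none of these was tested.

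Theta-class genes on chromosome 10 did not move together. Gstt1 read -0.0088, 0.50, 0.22 and 0.0047 in tumours 1 to 4, highest in tumour 2. Gstt3 read -0.055, 0.11, 0.16 and -0.074. Gstt4 (1 probe), within 42.4 kb of both, read 0.021, -0.40, -0.012 and -0.10 and was lowest in tumour 2. Gstp1, the pi-class gene on chromosome 19, had 1 probe with 45.8% G and C, the highest share among members, and read 0.36, 0.42, 0.13 and -0.028, a mean of 0.22 ± 0.21 (SD, n = 4). After removal of the trend on base composition it read 0.30, 0.032, 0.088 and -0.094. The microsomal transferase gene Mgst1 read -0.14, 0.18, 0.13 and 0.067, below 0 in tumour 1 and highest in tumour 2. Mgst2 read -0.022, 0.059, 0.030 and -0.12, lowest in tumour 4. Mgst3, beside Aldh9a1 on chromosome 1, read 0.076, 0.064, 0.045 and -0.028, within 0.076 of 0 in each tumour.

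Omega-class Gsto1, whose enzyme reduces dehydroascorbate, was below 0 in all 4 tumours at -0.16, -0.30, -0.089 and -0.30, a mean of -0.21 ± 0.11 (SD, n = 4; limma adjusted p = 0.102). Its surroundings lay near 0, with a mean of 0.011 over the tumours, and the gene's difference from them was -0.22 ± 0.13 (SD, n = 4; limma adjusted p = 0.343). Its probes disagreed. The probe starting at 47930384 read -0.17, -0.64, -0.12 and -0.78, and the probe starting at 47937767 read -0.14, 0.043, -0.054 and 0.17 in tumours 1 to 4, so only the first was low in tumours 2 and 4. Both hold 36.7% G and C. Gsto2, in the same cluster, had 1 probe and read -0.11, 0.18, -0.18 and -0.051, on both sides of 0.

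Tested against its flanks, no member passed either. The limma fit on gene value minus flanks called 0% of 13387 genes higher and 0% lower, with 14.3% at an unadjusted p under 0.05, and 3 of 42 members fell under that line. These were Gsto1, Sult1b1 and Ugt2b37, all at an adjusted p of 0.343, with mean differences of -0.22, 0.16 and 0.13.

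Ugt1a10 was the single Ugt1 name among the members, and its 13 probes span 126 kb of chromosome 1. The Ugt1 locus encodes several enzymes through alternative first exons joined to shared last exons, among them the enzyme that glucuronidates bilirubin. It read 0.17, 0.067, 0.065 and 0.027, above 0 in each tumour, a mean of 0.082 ± 0.060 (SD, n = 4; limma adjusted p = 0.328). Flanking probes read 0.11, 0.093, 0.015 and 0.042, so the gene differed from them by 0.017 ± 0.042 (SD, n = 4). Single probes within it ranged between -0.34 and 0.69 in tumour 2 and between -0.13 and 0.19 in tumour 4.

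Aldehyde dehydrogenases made up the largest family, with 19 genes on 12 chromosomes. Their tumour means lay between -0.23 and 0.20, 9 above and 10 below 0. Aldh1a3, another retinaldehyde dehydrogenase, had the lowest mean over the 4 tumours and read -0.022, -0.55, -0.22 and -0.12, -0.23 ± 0.23 (SD, n = 4; limma adjusted p = 0.229). Without tumour 2 its mean was -0.12, and the means of Aldh6a1, -0.19, and Aldh1a2, -0.16, were lower. Its 4 probes in tumour 2 ranged between -1.35 and 0.23, and the lowest was the member probe poorest in G and C, at 25%. Aldh9a1, of carnitine synthesis, had the highest mean over the 4 tumours and read 0.26, 0.54, 0.069 and -0.081, 0.20 ± 0.27 (SD, n = 4; limma adjusted p = 0.315). It was above 0 in tumours 1, 2 and 3 and below 0 in tumour 4, and its mean was 0.082 without tumour 2.

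Several other Aldh genes were highest in tumour 2. Aldh3a1, which oxidises aromatic and medium-chain aldehydes, read 0.083, 0.56, -0.022 and 0.13, a mean of 0.19 ± 0.26 (SD, n = 4; limma adjusted p = 0.318), and 0.063 without tumour 2. Its neighbour Aldh3a2, the fatty aldehyde dehydrogenase, read 0.13, 0.089, 0.13 and 0.056 and stayed within 0.13 of 0 in every tumour. Aldh2, the mitochondrial enzyme that clears acetaldehyde, had 1 probe and read -0.15, 0.48, 0.12 and 0.16, below 0 in tumour 1 alone. Aldh16a1, also with 1 probe, read -0.15, 0.43, 0.035 and -0.23, below 0 in tumours 1 and 4. Aldh1l1, a formyltetrahydrofolate dehydrogenase, read -0.039, 0.49, 0.051 and 0.086, highest in tumour 2. On chromosome 19, the retinaldehyde dehydrogenase gene Aldh1a1 read -0.040, -0.26, -0.052 and -0.11. Its neighbour Aldh1a7 read 0.071, -0.42, -0.10 and -0.22, and both were lowest in tumour 2. Of the remaining 8 Aldh genes, Aldh4a1 was above 0 in every tumour, at 0.11, 0.21, 0.0024 and 0.12, and Aldh5a1 below 0 in every tumour, at -0.034, -0.056, -0.12 and -0.0039. Aldh3b1, beside Gstp1 on chromosome 19, read 0.042, 0.44, -0.078 and -0.11, highest in tumour 2. The means of Aldh1b1, Aldh8a1, Aldh1l2, Aldh7a1, Aldh3b1 and Aldh18a1 lay between -0.10 and 0.073.

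Outside the chromosome 5 cluster, 6 sulfotransferase genes were measured. On chromosome 17, Sult1c1 read -0.094, -0.16, -0.092 and -0.0075, below 0 in every tumour. Its neighbour Sult1c2 read -0.030, 0.011, -0.031 and 0.10, on both sides of 0. Sult2b1, which sulfates cholesterol and other hydroxysteroids, read -0.13, 0.41, 0.16 and -0.17, highest in tumour 2. Sult3a1 read 0.052, -0.50, -0.016 and -0.0047, far lowest in tumour 2. Sult1a1, the phenol sulfotransferase, had 1 probe and read 0.072, -0.12, -0.16 and -0.27, above 0 in tumour 1 alone. Sult5a1, also with 1 probe, read -0.054, 0.42, 0.20 and 0.16, below 0 in tumour 1 alone.

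Genes that regulate, supply or export conjugates were read from a separate list of 36, of which 33 were measured and 29 had at least 2 probes. Those past the limma threshold numbered 0 of 29 in either direction, with 4 at an unadjusted p under 0.05 against 19% of all genes. Their median was -0.000081, beside -0.0083 for all genes. Above 0 in every tumour were 3 of 29, against 14.3% of all genes, and below 0 in every tumour 2 of 29, against 16.8%. Ahr, the aryl hydrocarbon receptor that induces several of these enzymes, lies on chromosome 12 and read -0.24, -0.34, -0.12 and -0.18, below 0 in every tumour (limma adjusted p = 0.0872). Gclc, the catalytic subunit of glutathione synthesis, lies on chromosome 9 and read -0.18, 0.032, -0.18 and -0.23, near 0 in tumour 2 alone (limma adjusted p = 0.237). Keap1, the inhibitor of the antioxidant regulator Nfe2l2 and also on chromosome 9, read -0.25, 0.52, -0.047 and -0.20, far above the others in tumour 2. Nr1i2, the pregnane X receptor, read -0.088, -0.51, -0.081 and -0.20, lowest in tumour 2 (limma adjusted p = 0.202). Its partner Rxra read 0.14, 0.75, 0.13 and 0.22, highest in tumour 2 (limma adjusted p = 0.198).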

How the data were processed

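DNA of 4 liver tumours was hybridised to 2-colour arrays. Per the file headers, Agilent Feature Extraction 12.0.1.1 made the deposited processed intensity of both dyes, with background subtraction, detrending and dye normalization, on build mm9; the submitters' processing notes name version 12.0.0. Mean and background intensity, as deposited, are scanner values without normalization. Deposited log10 ratio values served only to check direction: they differed by at most 0.001 from log10 of the processed Cy5 over Cy3 at no less than 99.7% of spots.

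Here log2 of processed Cy5 over Cy3 intensity was taken per spot, outlier spots were dropped (0 among members), 1000 probes with 5 spots were averaged, and the autosomal median of the array was subtracted, with no loess or quantile step. In the tumour channel at least 99% of spots were well above background, in the reference channel at least 98.9%, and so were all member spots. The number of arrays limits the precision.

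Genes with 2 or more probes were tested with limma 3.58.1 in R 4.3.3 (an intercept against 0, moderated by eBayes, Benjamini-Hochberg adjusted), a fit tested on simulated data, and again after subtracting the median of probes within 1 Mb. The simulated arrays were drawn independently, and the recovery of small shifts in them is not reported here. Python 3.11.15 with numpy 2.4.6 and pandas 2.3.3 did the rest. Values in each tumour are given for members on chromosomes 9, 12 and 15, for the 8 of widest range and the 8 of largest absolute mean, and for families of fewer than 3. Clusters are members within 1 Mb of each other, and those of 3 or more genes are described by their range; the further genes printed were chosen after their values were seen. Arrays lay on 2 slides with 2 arrays each. Alternatives covered normexp (offset 50), flagged and dim spots, the gene summary, centring, an intensity trend, array signs, probe minimum, slide, window and each tumour left out. A trend on base composition and the omission of tumours 1 and 4 were added after the data had been seen. Members, lists and tests were chosen with earlier results of these data known. Nr1i3, Nat1 and Akr1a4 of the separate list were not analysed here.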

Additional observations from a re-analysis of the deposited data

Results flagged for a closer look

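Among the 58 members, 5 had 1 tumour whose gap to the nearest other exceeded the 95% critical value of Dixon's test for 4 values. The nominal rate of about 1 in 20 holds for equally noisy values, which these arrays did not give. The share over all genes was not counted, so no excess is read from the 5. Aldh6a1, on chromosome 12, read -0.33 in tumour 4, against -0.13 to -0.11 in the others. Sult3a1, a sulfotransferase gene of chromosome 10, read -0.50 in tumour 2, against -0.016 to 0.052 in the others. Its probes within 1 Mb had a median of -0.27 in tumour 2. Ugt2a1, in the cluster of chromosome 5, read -0.30 in tumour 2, against 0.013 to 0.077 in the others. Ugt2b34, at the start of that cluster, read -0.020 in tumour 3, against 0.083 to 0.095 in the others, a narrow range in all. Aldh1b1, a mitochondrial aldehyde dehydrogenase with 1 probe, read 0.26 in tumour 3, against -0.12 to -0.081 in the others. Of the 5, 2 were low in tumour 2, whose array was the noisiest; its part in these values was not tested.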

How the results depend on the processing

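No paired analysis was possible because the tumours form 1 group. Against 0 genes called in either direction (limma, 2540 at an unadjusted p under 0.05), normexp background correction gave 647 higher and 822 lower, a minimum of 3 probes 186 higher and 178 lower, and slide as a random block 474 higher and 640 lower, where the estimated correlation within a slide was -0.34. The members called were Ugt3a1 and Ugt3a2 (higher) with Gsta4, Gsto1, Aldh1a3 and Ugt2b35 (lower) under normexp, Ugt3a2 (higher) with Gsta4 (lower) under the probe minimum, and Ugt3a2 (higher) with Gsta4, Gsto1 and Aldh1a2 (lower) under the slide block. Leaving out 1 tumour at a time gave 0 to 416 higher and 0 to 746 lower, with calls only without tumour 2. Without tumours 1 and 4, 1 gene was higher and 0 lower, for gene values and for values minus flanks alike; it was Itln1, an intelectin gene outside the members, named after its value was seen. The other alternatives left 0 genes called. The cause was not tested.

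The member median of chromosome 15, 0.20, became 0.29 with normexp, 0.13 with the sign of tumour 1 turned and 0.089 with that of tumour 4 turned. That of chromosome 9, -0.21, became -0.12 and -0.11 with those signs turned. That of chromosome 12, -0.085, became 0.015 with the sign of tumour 4 turned, and that elsewhere, 0.024, became -0.0013 when centred on the mode. Over the tumours left out in turn, the medians ran 0.18 to 0.22 (15), -0.25 to -0.18 (9), -0.15 to -0.047 (12) and 0.0057 to 0.031 (elsewhere). Ugt1a10 became -0.0020 with the sign of tumour 1 turned, and Ugt2b38 ran -0.31 to 0.0069 with 1 tumour left out, the last without tumour 2. Of the other comparisons of single members with an alternative, 273 kept their side of the threshold and direction or stayed within 1 SD, 14 passed it and 3 moved, all at Gsta2. These comparisons covered only members selected by chromosome, range, mean or small family, not all 58. Some within 1 SD changed sign. Aldh2 went from 0.15 to -0.012 with normexp, and Sult1d1 from -0.091 to 0.046 with the intensity trend removed. All member spots were well above background, and the number of arrays limits the precision.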
